A study of Mus musculus with 8 samples.

Results

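Stereocilin, the phosphatase Ptprq, clarin 1, the receptor Adgrv1 and the scaffolds harmonin, whirlin, Pdzd7 and Sans build hair bundle links and their anchoring complexes. Their genes and that of the stereocilia protein Loxhd1, 9 in all, were followed here in the embryonic mouse utricle. They are Ush1c, Ush1g, Adgrv1, Whrn, Pdzd7, Clrn1, Ptprq, Strc and Loxhd1. The genes were chosen by name as a functional group, with earlier results of these data known, and all 9 were found among the 48823 gene identifiers counted. Expression was measured by RNA-seq in 4 libraries of utricles from mice that carry 1 allele of Rest without exon 4 (genotype label Rest(+/deltaExon4)) and in 4 libraries of wild-type utricles. All libraries are labelled C57BL/6 and E15.5 (the embryonic day), except wild-type replicate 4, whose labels read C57BL/7 and E15.6. Each library pooled RNA of 7 to 9 mice, so the spread between libraries is a spread between pools. REST is a transcriptional repressor of neuronal genes, and skipping or including exon 4 of its gene changes the protein it makes. The mutant mice are heterozygous by genotype, although their sample titles read KO, and the whole organ was used, of which hair cells are one part. In such bulk RNA, fewer hair cells and less RNA per hair cell cannot be told apart.

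The stereocilia of a hair cell are joined by several kinds of extracellular links. Tip links pull on the transduction channel, ankle links join the bases of young stereocilia, shaft connectors join their sides and horizontal top connectors join their upper ends. On the cytoplasmic side the links are held by scaffold proteins, several of them with PDZ domains, and mutations in many of these genes cause Usher syndrome (deafness with retinal degeneration, and in some forms loss of balance) or deafness alone. The estimated change between the genotypes varied over the group, and whether the genes differ from one another in their change was not tested. Ptprq and Loxhd1 fell, to 57.3% and 53.8% of the wild-type level, Strc and Clrn1 were lower in every mutant library without passing the test over all genes, and the scaffold genes Pdzd7 and Ush1g had nearly equal means.

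Promoter sequences are shown for the pair of genes that were lower in every mutant library and have a window in RefSeq's table (Strc and Clrn1), and for Pdzd7, whose groups overlapped. Each window (GRCm38.p6, minus strand) runs from 250 bases before to 50 bases after the annotated start, and 6 of the 9 genes had one. Capitals mark CAGNTG, a form of the E-box with any base at N, or GGACAGC, letters of the right-hand part of the REST binding element RE1, on either strand. The RefSeq starts of Strc and Clrn1 lie inside the gene spans of GENCODE M21, with the whole window of Strc inside, and the window of Pdzd7 lies outside its span. The windows are chr2:121380891-121381190 for Strc, chr3:58885163-58885462 for Clrn1 and chr19:45045723-45046022 for Pdzd7.
Strc: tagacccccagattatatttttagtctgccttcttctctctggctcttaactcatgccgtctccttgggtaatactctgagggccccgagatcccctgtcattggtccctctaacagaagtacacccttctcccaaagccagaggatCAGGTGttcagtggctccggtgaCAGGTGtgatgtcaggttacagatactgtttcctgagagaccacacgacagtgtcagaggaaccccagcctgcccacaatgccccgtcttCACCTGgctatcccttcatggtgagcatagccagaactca
Clrn1: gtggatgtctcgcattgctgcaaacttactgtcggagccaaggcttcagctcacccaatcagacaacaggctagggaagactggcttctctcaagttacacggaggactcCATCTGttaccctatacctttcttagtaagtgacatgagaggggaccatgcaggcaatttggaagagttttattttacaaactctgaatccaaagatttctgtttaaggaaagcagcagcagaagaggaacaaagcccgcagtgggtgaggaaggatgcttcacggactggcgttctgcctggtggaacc
Pdzd7: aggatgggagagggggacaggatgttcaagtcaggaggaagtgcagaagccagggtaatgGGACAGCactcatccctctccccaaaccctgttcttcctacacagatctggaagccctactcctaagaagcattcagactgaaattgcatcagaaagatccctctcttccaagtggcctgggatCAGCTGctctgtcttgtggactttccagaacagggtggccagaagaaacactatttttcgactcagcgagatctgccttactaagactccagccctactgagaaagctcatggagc

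Strc held 3 matches to CAGNTG, at 103 and 80 bases before and 10 bases after the start, Clrn1 held 1 at 140 bases before it, and Pdzd7 held 1 at 66 bases before it. CAGNTG was found in 5 of the 6 windows (not in Whrn) and in 51.4% of all 32851 windows of this length. GGACAGC was found in 3 of the 6 windows, those of Ush1c, Adgrv1 and Pdzd7, and in 6.6% of all windows, and CAGCACC, letters of the left-hand part of RE1, in none of the 6 and in 7.1% of all windows. The windows of Strc and Clrn1 hold no GGACAGC. None of the 6 genes with a window passed the test, and Ptprq and Loxhd1, which passed, have no window. These windows therefore cannot relate the letters to the calls. A match in letters is a description of these windows only.

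Sequencing gave 22391530 to 24557189 read pairs on genes per mutant library and 20365225 to 23827315 per wild-type library. The 9 genes together held 4035 to 4686 read pairs in mutant libraries and 4601 to 6512 in wild-type libraries, of which Ush1c took 65.4% to 71.8% and 61.7% to 64.5%. The share of read pairs outside annotated genes was 11.9% to 18.3% for mutant libraries and 18.4% to 22.2% for wild-type ones, and mutant libraries detected fewer genes (23408 to 23989, against 24265 to 24687 in wild-type libraries). These measures separate the genotypes, and their part in the results was not tested. Levels are given as CPM, counts scaled to a common library size. Rest was at 127 ± 3.20 CPM in mutant pools, with 116 ± 7.34 CPM in wild-type pools (± SD over 4 pools each; edgeR adjusted p = 0.456), and a gene total checks neither the loss of exon 4 nor the label.

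Hair cell genes were read beside the group, as a set of 6 and as a wider set of 18 that includes the 6. The summed level of the 6 (Pou4f3, Gfi1, Lhx3, Barhl1, Myo6 and Rbm24) was 503, 595, 444 and 462 CPM in the mutant libraries and 602, 489, 523 and 565 CPM in the wild-type libraries. The groups overlapped, with a ratio of 0.920 (exact two-sided permutation p = 0.343 over 70 assignments; the smallest possible is 0.0286). Most of the sum came from Myo6, whose mean was 318.5 of 501 CPM over mutant pools and 348.4 of 544.6 CPM over wild-type pools. In mutant replicate 2 Myo6 gave 404 of 595 CPM. None of the 6 passed edgeR's test with Benjamini-Hochberg adjustment, none had an unadjusted p under 0.05, and Pou4f3 alone was at 110 ± 9.77 CPM in mutant pools, with 116 ± 11.5 CPM in wild-type pools (± SD over 4 pools each). Of 18 general hair cell genes, 1 was lower and 0 higher after adjustment (Otof, the calcium sensor of transmitter release, 84.1 ± 9.81 and 167 ± 8.78 CPM, edgeR adjusted p = 0.000319). At an unadjusted p under 0.05, 5 of the 18 were lower (Myo7a, Pcp4, Anxa4, Otof and Ocm), against 7.92% of all genes tested, and 2 were higher (Atoh1 and Calb2), against 5.46%. The 18 genes summed to 982, 1101, 921 and 922 CPM in the mutant libraries and to 1215, 1047, 1072 and 1142 CPM in the wild-type libraries, a ratio of 0.877 (exact two-sided permutation p = 0.0857). Of the mutant libraries, replicate 2 reached the wild-type range and the other 3 lay below it. None of the 18 genes was without reads.

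The scaffold genes had the highest and some of the lowest counts of the group. Ush1c (chromosome 7, 46195350 to 46238503, GRCm38, minus strand) encodes harmonin, the PDZ scaffold that anchors tip links at their upper end. It was at 137, 126, 138 and 132 CPM in the mutant libraries and at 178, 131, 151 and 157 CPM in the wild-type libraries. The lowest wild-type library lay inside the mutant range and the other 3 lay above it. The log2 change was -0.21 ± 0.09 (SE), that is 86.5% of the wild-type level with a 95% interval of 75.2% to 99.4%, and it did not pass over all genes (edgeR adjusted p = 0.356). A transcript to be classified on the opposite strand, Gm9860, covers 3.12% of the exon bases of Ush1c, and reads there cannot be assigned by strand.

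Ush1g (chromosome 11, 115315192 to 115322041) encodes Sans, a small scaffold that binds harmonin and the motor myosin 7a. Its counts were 33, 25, 30 and 11 read pairs in mutant and 6, 19, 33 and 39 in wild-type libraries, or 1.41, 1.19, 1.25 and 0.449 CPM and 0.255, 0.876, 1.33 and 1.89 CPM. The libraries of each genotype spread several-fold and the groups overlapped, and the 95% interval of the change ran from 43.9% to 224% of the wild-type level (edgeR adjusted p = 0.996). The interval holds both large falls and large rises, so these libraries leave the change of Ush1g undetermined.

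Whrn (chromosome 4, 63414910 to 63495991) encodes whirlin, a PDZ scaffold of stereocilia tips and of the ankle link complex. It was at 8.48, 8.88, 7.67 and 7.43 CPM in mutant libraries and at 13.2, 8.58, 8.56 and 8.96 CPM in wild-type libraries. Wild-type replicate 1 stood above all others, and the remaining 3 overlapped the mutant libraries. The log2 change was -0.28 ± 0.17 (SE) and did not pass (edgeR adjusted p = 0.503). Without wild-type replicate 1 it was -0.09 (edgeR adjusted p = 0.855).

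Pdzd7 (chromosome 19, 45026906 to 45045717) encodes the PDZ partner of whirlin in the ankle link complex. It was at 5.61, 4.34, 3.79 and 3.84 CPM in mutant and at 4.08, 3.92, 4.56 and 3.68 CPM in wild-type libraries. The groups overlapped, with mutant replicate 1 highest, and Pdzd7 was the 1 gene of the 9 with a positive log2 change (0.11 ± 0.19, SE, edgeR adjusted p = 0.840). The 95% interval was 81.2% to 144% of the wild-type level, and without mutant replicate 1 the value was -0.03 (edgeR adjusted p = 0.970). On the opposite strand Lzts2 shares 5.08% of the exon bases of Pdzd7.

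The remaining 5 genes encode proteins of the links, of the membrane or, for Loxhd1, of the stereocilia. Adgrv1 (chromosome 13, 81095068 to 81633154) encodes the adhesion receptor whose very long extracellular part forms the ankle links. It was at 6.16, 4.34, 5.34 and 5.27 CPM in mutant and at 8.91, 5.63, 8.48 and 6.63 CPM in wild-type libraries. Wild-type replicate 2 fell inside the mutant range, and the log2 change of -0.49 ± 0.19 (SE; 71.2% of the wild-type level, 95% interval 53.3% to 95.1%) did not pass over all genes (edgeR adjusted p = 0.310).

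Clrn1 (chromosome 3, 58844028 to 58885340) encodes clarin 1, a membrane protein with several transmembrane spans that is mutated in one form of Usher syndrome. It was at 17.3, 17.3, 14.8 and 18.7 CPM in mutant and at 22.5, 24.0, 22.2 and 19.5 CPM in wild-type libraries. Every mutant library lay below every wild-type library, by a narrow margin between mutant replicate 4 and wild-type replicate 4. The log2 change was -0.37 ± 0.11 (SE), 77.2% of the wild-type level with a 95% interval of 65.2% to 91.4%, and it did not pass over all genes (edgeR adjusted p = 0.182).

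Ptprq (chromosome 10, 107517049 to 107720051) encodes a receptor-type phosphatase that is part of the shaft connectors. It was at 9.46, 12.4, 8.09 and 9.68 CPM in mutant and at 17.0, 16.3, 17.0 and 18.7 CPM in wild-type libraries, from 194 to 259 and 354 to 420 read pairs. Each mutant library lay below each wild-type library, and the wild-type libraries were close together. Ptprq fell by 0.80 on the log2 scale (SE 0.14), to 57.3% of the wild-type level with a 95% interval of 46.4% to 70.8% (edgeR quasi-likelihood test, Benjamini-Hochberg adjusted p = 0.0187).

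Loxhd1 (chromosome 18, 77281958 to 77442930, plus strand) encodes a protein of PLAT domains in the stereocilia whose mutation causes deafness. It was at 10.7, 14.1, 10 and 10.4 CPM in mutant and at 25.9, 16.1, 20.5 and 21.5 CPM in wild-type libraries, from 240 to 295 and 349 to 610 read pairs. The nearest pair was mutant replicate 2 and wild-type replicate 2, and no libraries overlapped. Loxhd1 fell by 0.90 on the log2 scale (SE 0.16), to 53.8% of the wild-type level with a 95% interval of 41.9% to 69.0% (edgeR adjusted p = 0.0228).

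Strc (chromosome 2, 121363728 to 121387168) encodes stereocilin, the protein of the horizontal top connectors. It was at 4.49, 4.15, 3.25 and 2.49 CPM in mutant and at 7.00, 5.90, 7.03 and 5.71 CPM in wild-type libraries, from 61 to 105 and 118 to 174 read pairs. The genotypes did not overlap. The log2 change of -0.84 ± 0.21 (SE; 56.0% of the wild-type level, 95% interval 40.8% to 77.0%) had a wider error than that of Ptprq and did not pass with edgeR (adjusted p = 0.103), while DESeq2 called it (adjusted p = 0.0075).

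**Figure D1:**
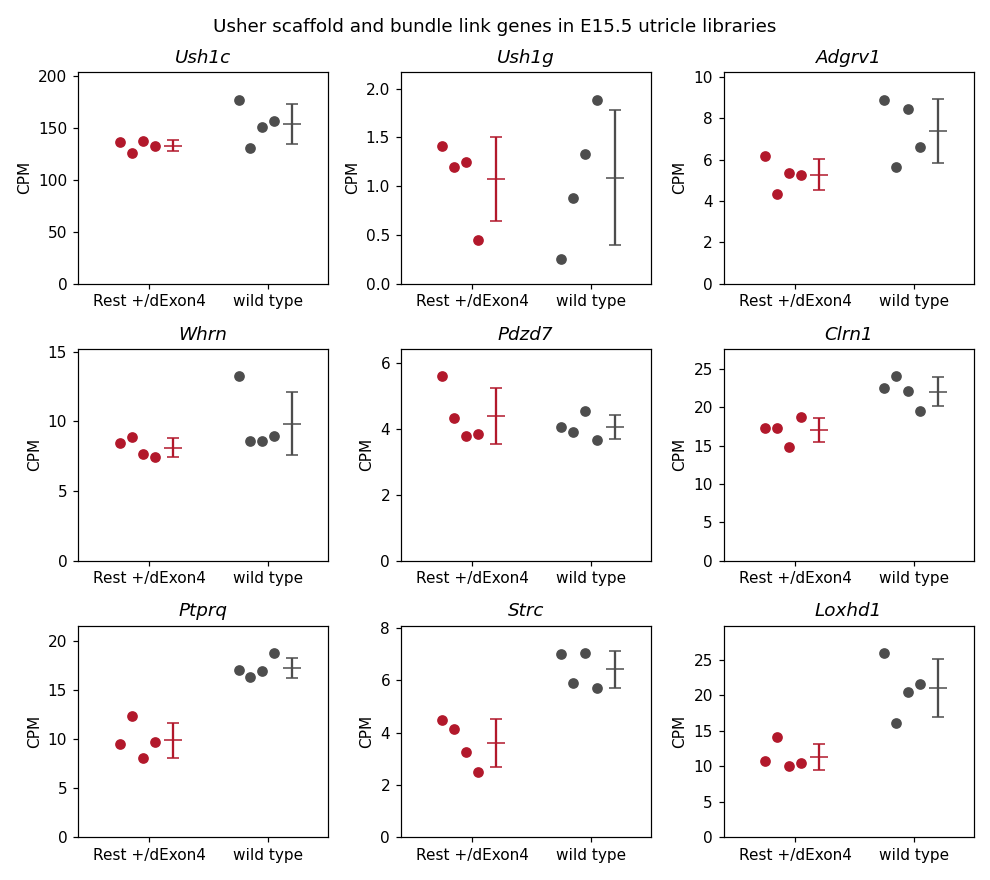
CPM of each of the 9 genes in the 4 Rest(+/deltaExon4) libraries (red, left) and the 4 wild-type libraries (grey, right), one point per library in replicate order, with the mean and SD beside them. Clrn1, Ptprq, Strc and Loxhd1 show no overlap between genotypes, with Ptprq at 8.09 to 12.4 CPM in mutant pools, with 16.3 to 18.7 CPM in wild-type pools.

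Of the 9 genes, 2 fell and 0 rose at an adjusted p under 0.05, against 1.02% of all 16990 genes tested that fell and 0.147% that rose. At an unadjusted p under 0.05, 6 of the 9 were lower (Ush1c, Adgrv1, Clrn1, Ptprq, Strc and Loxhd1), against 7.92% of all genes tested, and 0 were higher, against 5.46%. Groups that did not overlap, with the mutant libraries lower, were found for 4 of the 9, against 4.89% of all genes tested, and with the mutant libraries higher for 0 of the 9, against 2.98% (7.88% in either direction). The median log2 change of the 9 genes was -0.37, against -0.003 over all genes tested, and 8 of the 9 values were negative. By DESeq2, 3 of the 9 were lower (Ptprq, Loxhd1 and Strc), against 2.42% of all genes tested.

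The calls of Ptprq and Loxhd1 depended on having all 8 libraries. Ptprq kept its call in 2 of the 8 fits that each leave out 1 library (without mutant replicate 2 or 3), and in the other 6 (without mutant replicate 1 or 4 or any 1 wild-type replicate) its adjusted p by edgeR was 0.0507 to 0.0604. Loxhd1 kept its call without mutant replicate 2 or wild-type replicate 2, and in the other 6 its edgeR adjusted p was 0.0648 to 0.0811. The size of the fall hardly moved in these fits, from -0.91 to -0.72 for Ptprq and from -1.01 to -0.77 for Loxhd1 on the log2 scale.

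Levels between genes were compared per kb of annotated exon. In the mutant libraries Ush1c was highest (34.6 ± 1.42 CPM per kb), followed by Clrn1 (4.41 ± 0.413), and then by Ptprq (1.32 ± 0.238), Loxhd1 (1.27 ± 0.211), Whrn (1.11 ± 0.0921) and Pdzd7 (1.08 ± 0.208), which lay within each other's spread. Strc (0.578 ± 0.145), Ush1g (0.326 ± 0.130) and Adgrv1 (0.212 ± 0.0299) were lower (± SD over 4 pools each). In the wild-type libraries Ush1c (40.0 ± 5.0 CPM per kb) and Clrn1 (5.71 ± 0.492) were again highest, but Loxhd1 (2.36 ± 0.452) and Ptprq (2.30 ± 0.138) stood above Whrn (1.34 ± 0.311), Strc (1.03 ± 0.113) and Pdzd7 (1.0 ± 0.0919), with Ush1g (0.329 ± 0.210) and Adgrv1 (0.298 ± 0.0622) at the low end (± SD over 4 pools each). So Strc and Pdzd7 were within their spread of each other in wild-type utricles, and in mutant utricles Strc was below Pdzd7 in means. Adgrv1 has the most annotated exon of the 9 (24878 bases).

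**Figure D2:**
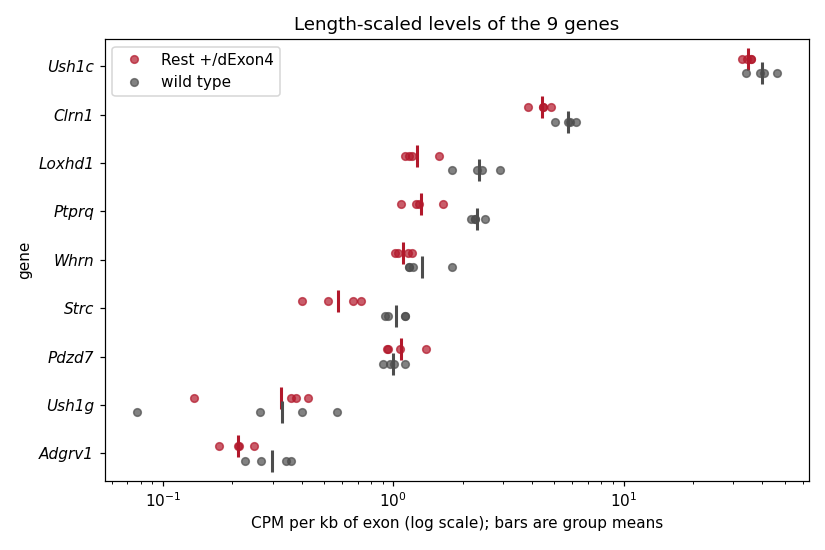
CPM per kb of annotated exon on a log scale for the 9 genes, ordered by their wild-type mean, with Rest(+/deltaExon4) libraries in red above wild-type libraries in grey and group means as bars. Loxhd1 and Ptprq stand at 1.27 and 1.32 CPM per kb in mutant and 2.36 and 2.30 CPM per kb in wild-type utricles, while Pdzd7 stays near 1.

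Grouped by role, the 5 genes of links, membrane and, for Loxhd1, stereocilia summed to 7.91, 8.56, 6.79 and 7.91 CPM per kb in mutant libraries. In wild-type libraries they summed to 12.5, 11.4, 11.8 and 11.2 CPM per kb, without overlap. The 4 scaffold genes summed to 38.6, 35.4, 38.1 and 36.5 CPM per kb in mutant libraries and to 49.0, 36.4, 41.9 and 43.5 CPM per kb in wild-type libraries, where replicate 2 lay inside the mutant range and the other 3 above it. Most of this sum was Ush1c. The scaffold genes other than Ush1c summed to 2.97, 2.64, 2.36 and 2.10 CPM per kb in mutant libraries and to 2.89, 2.40, 2.70 and 2.70 CPM per kb in wild-type libraries, with overlap. This grouping was made with the values known and is a description. Whether these 5 genes and the scaffold genes differ in their change was not tested.

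Each gene was also set against the hair cell genes of the same library. This scale rests mostly on Myo6, the largest part of the 6-gene sum. Per 100 CPM of the 6-gene sum, Ptprq was at 1.88, 2.08, 1.82 and 2.10 in mutant and at 2.82, 3.34, 3.24 and 3.32 in wild-type libraries. Loxhd1 was at 2.13, 2.37, 2.25 and 2.26 in mutant and at 4.30, 3.29, 3.91 and 3.81 in wild-type libraries, and Strc at 0.893, 0.698, 0.732 and 0.540 in mutant and at 1.16, 1.21, 1.34 and 1.01 in wild-type libraries. On this scale the mutant libraries lay below the wild-type libraries without overlap for these 3 of the 9 genes, against 2.87% of all genes tested. The other 6 overlapped, among them Clrn1 (2.91 to 4.04 in mutant, 3.45 to 4.92 in wild-type libraries) and Ush1c (21.2 to 31.0 in mutant, 26.8 to 29.5 in wild-type libraries). When all genes were fitted with this sum as library size, Loxhd1 fell by 0.77 on the log2 scale (edgeR adjusted p = 0.0280), while Ptprq, at -0.69, and Strc, at -0.72, did not pass (edgeR adjusted p = 0.0593 and 0.203). In that fit 0.577% of all genes tested were lower, and the median of all genes was shifted by 0.13.

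**Figure D3:**
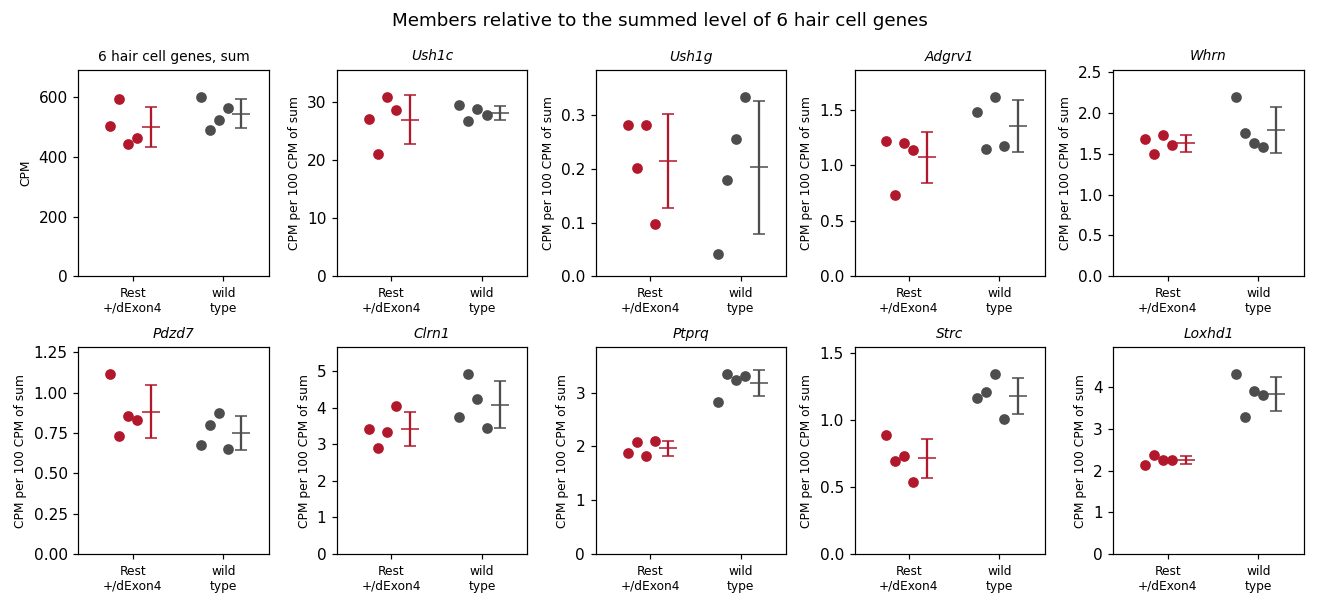
The summed CPM of 6 hair cell genes (first panel) and each of the 9 genes per 100 CPM of that sum, with Rest(+/deltaExon4) libraries in red on the left and wild-type libraries in grey on the right, one point per library with mean and SD beside. Ptprq (1.82 to 2.10 in mutant, 2.82 to 3.34 in wild-type libraries), Strc and Loxhd1 remain apart on this scale, and the sum itself overlaps. Most of the sum is Myo6.

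Across single libraries the genes did not all vary together. In wild-type replicate 1, Ush1c, Adgrv1, Whrn and Loxhd1 were highest of all libraries, at 0.31, 0.49, 0.56 and 0.74 above their own means on the log2(CPM + 0.5) scale, and Ush1g was lowest (-0.98). Mutant replicate 2 had the highest Ptprq and Loxhd1 of the mutant libraries (-0.07 and -0.11, against -0.65 to -0.41 and -0.58 to -0.49 in the other 3) together with the highest hair cell gene sum of these 4, yet the lowest Adgrv1 of all libraries (-0.47). Mutant replicate 4 had the lowest Strc (-0.81).

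**Figure D4:**
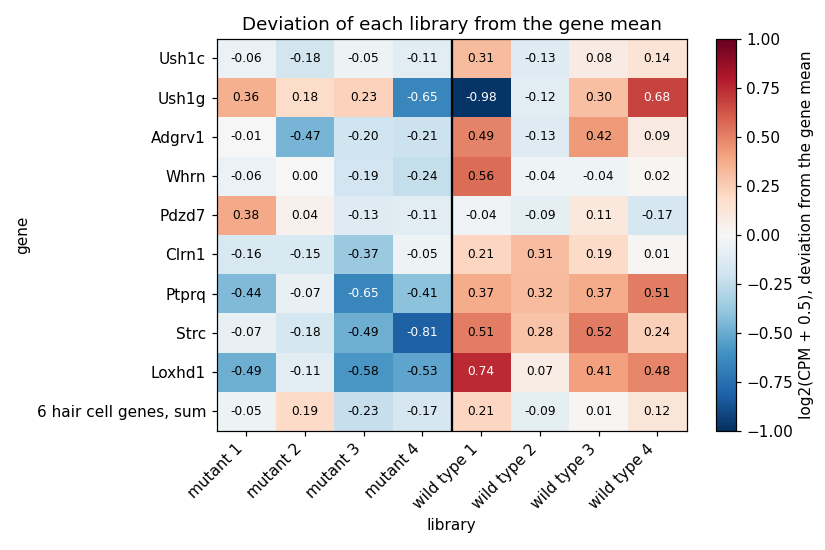
Deviation of each library from the mean of the gene over 8 libraries, on the log2(CPM + 0.5) scale, for the 9 genes and (as log2 of the sum) for 6 hair cell genes, with mutant libraries left of wild-type libraries. The mutant side is negative in all 4 libraries for Ush1c, Adgrv1, Clrn1, Ptprq, Strc and Loxhd1, and mixed for Ush1g, Whrn and Pdzd7.

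The genes whose deviations lay nearest to the mean profile of the 9, among 13592 genes with a mean of at least 2 CPM, were Plxna3, Lingo4, Hacd3, Minar2 and Plekha5, at root mean square differences of 0.051 to 0.067 log2 units over the 8 libraries. Of these, Minar2 (71.8 ± 3.81 CPM in mutant, 96.3 ± 6.60 CPM in wild-type libraries; edgeR adjusted p = 0.0191) and Plekha5 (47.1 ± 2.19 and 62.1 ± 5.40 CPM; adjusted p = 0.0433) fell. The mean profile was negative in every mutant and positive in every wild-type library. Genes picked by it from the same 8 libraries are therefore lower in mutants by choice, and their p-values lend no support. The 9 genes themselves lay farther from their mean profile, the nearest being Ush1c at 0.153 and the farthest with at least 2 CPM being Loxhd1 at 0.287.

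The list of other Usher genes and partner proteins gave no call. This list also holds genes of the extracellular membrane above the bundle, which come from supporting cells (Otoa, Tecta, Tectb, Otog and Otogl). Of 20 genes, 0 fell and 0 rose by edgeR after adjustment, against 1.02% and 0.147% of all genes tested. At an unadjusted p under 0.05, 2 were lower (Myo7a and Myo15), against 7.92%, and 1 was higher (Slc9a3r2), against 5.46%. DESeq2 and limma-voom called none of the 20 either. The median log2 change was -0.12. Myo7a, the motor bound by Sans and harmonin, was at 31.4 ± 3.87 CPM in mutant pools, with 41.6 ± 5.95 CPM in wild-type pools (edgeR adjusted p = 0.199). The tip link cadherin genes Cdh23 and Pcdh15 were at 6.34 ± 0.844 and 38.1 ± 3.43 CPM in mutant libraries, against 7.93 ± 2.35 and 38.4 ± 3.13 CPM in wild-type libraries (edgeR adjusted p = 0.550 and 0.980). In the tip-link transduction complex 2 of 6 genes were lower after adjustment, against 1.02% of all genes tested. They were Tmc2 (log2 change -2.92 ± 0.41, SE, edgeR adjusted p = 0.00477) and Lhfpl5 (-0.69 ± 0.11, SE, adjusted p = 0.0135). At an unadjusted p under 0.05, 5 of 6 were lower (also Tmc1, Cib3 and Tomt), against 7.92%. In 4 of the 6 (Tmc2, Lhfpl5, Cib3 and Tomt) the mutant libraries were lower without overlap, against 4.89% of all genes tested. Tmc1 was at 4.10 ± 0.662 CPM in mutant pools, with 5.82 ± 0.971 CPM in wild-type pools (± SD over 4 pools each; edgeR adjusted p = 0.303).

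**Figure D5:**
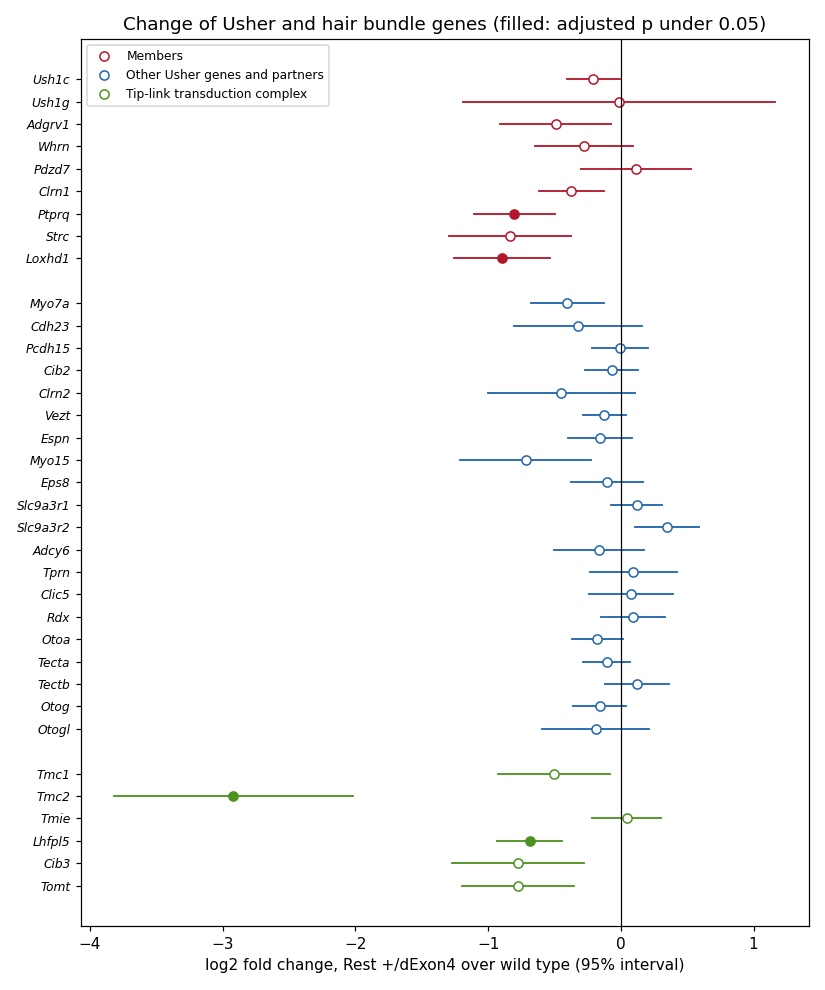
Log2 fold change of Rest(+/deltaExon4) over wild-type libraries with its 95% interval for the 9 genes, 20 other Usher genes and partners and 6 genes of the tip-link transduction complex; filled points passed edgeR's test at an adjusted p under 0.05. Ptprq (-0.80), Loxhd1 (-0.90), Tmc2 (-2.92) and Lhfpl5 (-0.69) are filled.

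Markers of other cell types were read beside these genes. The 13 supporting cell genes summed to 1662 to 1930 CPM in mutant pools, with 1669 to 2085 CPM in wild-type pools, with 0 of 13 past the threshold by edgeR. At an unadjusted p under 0.05, 1 of the 13 was higher, against 5.46% of all genes tested. Ganglion neuron genes summed to 354 to 420 CPM in mutant pools, with 539 to 756 CPM in wild-type pools. Of these 10, 2 fell, against 1.02% of all genes tested, the neurofilament genes Nefl and Nefm (edgeR adjusted p = 0.0116 and 1.9e-05). Most of the difference in the sum was theirs. Nefl was at 72.2 ± 11.6 and 134 ± 24.55 CPM and Nefm at 100 ± 3.30 and 253 ± 27.1 CPM in mutant and wild-type pools (± SD over 4 pools each). The other 8 did not pass, and 6 of the 10 log2 changes were negative. Wild-type replicate 3 gave the highest ganglion neuron sum, with Tubb3 at 61.9 CPM (15.02 to 20.3 CPM in mutant libraries, 13.8 to 18.6 CPM in wild-type replicates 1, 2 and 4) and Prph at 48.6 CPM (4.17 to 6.58 CPM in mutant libraries, 3.24 to 9.21 CPM in wild-type replicates 1, 2 and 4). Without it Ptprq and Loxhd1 were at -0.81 and -0.91 on the log2 scale (edgeR adjusted p = 0.0567 and 0.0684). None of these 10 was without reads, and their part in the results on the 9 genes was not tested. Wild-type replicate 4 held 6313 CPM of erythroid genes, against 502 to 766 CPM in mutant libraries and 493 to 590 CPM in wild-type replicates 1 to 3. Without it Ptprq and Loxhd1 were at -0.76 and -0.88 on the log2 scale (edgeR adjusted p = 0.0604 and 0.0648).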

How the data were processed

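Utricle RNA-seq libraries of 4 Rest(+/deltaExon4) and 4 wild-type pools were grouped by the genotype label. The authors deposited gene counts per library, whole read pairs that are not normalized, and a table of counts divided by size factors (a signal). Per the submitters' processing notes, STAR 2.5.2a, GRCm38.p4 and DESeq2 were used. The unstranded count column was taken, since the columns per strand had nearly equal sums (ratios 0.9959 to 1.002). Lines that name no gene (25.2% to 33.9% of read pairs) were left out. In the signal table wild-type replicate 4 has no column, and 21369 genes are listed for the other 7 libraries. Multiplied by a factor per library, 100% of its values became whole reads (tolerance 0.001) identical to the deposited ones. The same edgeR test run on them called 112 genes lower and 17 higher.

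Genes were annotated with GENCODE M21 (48349 identifiers matched), and Myo15a of the list was matched as Myo15 through RefSeq synonyms. Genes were kept with filterByExpr (minimum count 10, minimum total 15), scaled by TMM factors and tested with edgeR 4.0.16 (R 4.3.3) by the quasi-likelihood test with Benjamini-Hochberg adjustment over 16990 genes at a threshold of 0.05. A standard error is the log2 change over the square root of F, and intervals use the fit's degrees of freedom. CPM are per TMM-scaled library size. The p-values of edgeR set the difference between genotypes against the variation between pools, which is moderated over all genes tested. The test was checked on simulated counts. Alternatives were DESeq2 1.42.0, limma-voom (limma 3.58.1), other scalings and filters, the replicate number as a block, the summed strand columns and each library left out.

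The members and lists were chosen with earlier results of these data known. Named were the 9 members, Rest, Myo7a, Cdh23, Pcdh15, Tmc1, list genes past the threshold and the 5 genes nearest to the members' mean profile (pseudocount 0.5 CPM). Genes named outside this rule, after their values were seen, are Myo15, Slc9a3r2, Pou4f3, the overlapping genes Gm9860 and Lzts2, and Anks4b, Cdhr2, Cdhr5, Myo7b, Otoa, Tecta, Otog, Tectb, Otogl, Cib3, Tomt, Tubb3, Prph, Pcp4, Anxa4, Ocm, Atoh1, Calb2, the other hair cell genes of the set of 6, Cib2, Vezt, Eps8 and Rdx. Lists of Schwann cell, mesenchyme, melanocyte, erythroid and macrophage genes had no gene past the threshold by edgeR, and at an unadjusted p under 0.05 they held 1 Schwann cell and 1 mesenchyme gene that were higher and 2 erythroid genes that were lower. Over all genes tested 5.46% were higher and 7.92% lower at that p. One gene is not reported here.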

Additional observations from a re-analysis of the deposited data

Results flagged for a closer look

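Of 82 groups of 4 libraries checked, 4 held a library far from the other 3. Chance alone gives about 1 in 20. Whrn was at 13.2 CPM in wild-type replicate 1, against 8.56 to 8.96 CPM in wild-type replicates 2 to 4. Rest was at 131 CPM in mutant replicate 1, against 124 to 126 CPM in the other mutant libraries. Lingo4 was at 10.1 CPM in wild-type replicate 2, against 12.2 to 12.3 CPM in the others. Adgrv1 per 100 CPM of the hair cell gene sum was at 0.730 in mutant replicate 2, against 1.14 to 1.22 in the other mutant libraries.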

How the results depend on the processing

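Ptprq, Loxhd1, Strc, Clrn1, Adgrv1, Whrn and Ush1c had a negative log2 change in all 18 alternatives, and Ptprq passed in 9 of them and Loxhd1 in 10. The alternatives are not independent, and the authors' 7 libraries are the same as those left without wild-type replicate 4. The count of the 9 genes called lower was 2, and it was 1 with library size set by the 6 hair cell genes, 0 in the authors' 7 libraries, 0 with the replicate number as a block, 3 by DESeq2 and 0 to 2 when single libraries were left out. Over all genes, 173 fell and 25 rose. These counts were 98 and 34 with the hair cell scaling, 112 and 17 in the authors' 7 libraries, 411 and 153 by DESeq2, and 105 to 140 and 12 to 28 with single libraries left out. With the replicate block 80 fell and 16 rose, and edgeR's adjusted p was 0.0793 for Ptprq and 0.119 for Loxhd1. The labels do not say whether libraries of the same replicate number belong together. Same-numbered libraries correlated at -0.006, -0.103, 0.055 and -0.120 in their deviations, and no mutant library correlated best with its own number. These correlations cannot show that same-numbered pools were prepared apart, so the fit with the block stands beside the main one. Signs of values near 0 turned in some alternatives. With the hair cell scaling Ush1g was at 0.093, Pcdh15 at 0.13, Cib2 at 0.07, Vezt and Eps8 at 0.007 and Tecta at 0.02. Without a filter on low counts Ush1g was at 0.001 and Pcdh15 at 0.014. Ush1g was at 0.12 with the replicate block, 0.38 in the authors' libraries and 0.18 by limma-voom, and Pcdh15 at 0.011 in the authors' libraries. With single libraries left out Ush1g ran from -0.34 to 0.38, Pdzd7 from -0.025 to 0.18, Pcdh15 from -0.04 to 0.054 and Rdx from -0.006 to 0.18. The hair cell gene sum stayed on the same side of its threshold in each alternative run for it, and limma-voom, the replicate block, the filters and the hair cell scaling itself were not run for it. Ush1g had the fewest read pairs of the 9 genes, 6 to 39 per library.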

Other observations

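The brush border counterparts of the Usher complex, genes of microvilli in gut and kidney that work with harmonin there, were nearly silent in the utricle. Cdhr5 had 0 to 2 read pairs in each mutant library and 0 to 1 in each wild-type library. Anks4b had 0 to 5 read pairs in mutant libraries and 2, 0, 0 and 23 in wild-type libraries, and Cdhr2 had 0 to 2 in mutant libraries and 0, 1, 0 and 23 in wild-type libraries. Both were highest in wild-type replicate 4, which also held the erythroid excess. Ush1c was at 157 CPM in that library, inside the wild-type range of 131 to 178 CPM. Myo7b was at 0.262 ± 0.262 CPM in mutant pools, with 0.635 ± 0.328 CPM in wild-type pools (± SD over 4 pools each; edgeR adjusted p = 0.479).

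The proteins of the extracellular membrane above the bundle come from supporting cells, and none of 5 such genes (Otoa, Tecta, Tectb, Otog and Otogl) passed edgeR's test, with 0 of the 5 at an unadjusted p under 0.05. Otoa was at 160 ± 10.9 CPM in mutant pools, with 181 ± 18.6 CPM in wild-type pools, Tecta at 142 ± 13.7 and 153 ± 6.91 CPM, and Otog at 148 ± 10.7 and 165 ± 17.9 CPM (± SD over 4 pools each; edgeR adjusted p = 0.411, 0.592 and 0.476). Otogl was at 11.8 ± 1.25 and 13.4 ± 3.38 CPM, and Tectb, with the higher mean in mutant pools, at 544 ± 41.1 and 500 ± 76.1 CPM (edgeR adjusted p = 0.689 and 0.658).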
